A study of Mus musculus with 20 samples.

Results

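The comparison set short amosite asbestos (SFA) against short carbon nanotubes (NTS, called SNT in the study) in the mouse diaphragm 12 weeks after injection into the pleural cavity. The groups were taken from the array titles, and they comprised 8 of the 20 arrays, 4 titled SFA and 4 titled NTS, each from a separate mouse. All mice were female C57Bl/6, were injected at 8 weeks of age, and received 100 µL of saline with 0.5% bovine serum albumin. Control mice received this vehicle alone, SFA mice 25 µg of fibers, and NTS mice 5 µg of nanotubes, so that material and dose cannot be told apart. SFA was ground from the same amosite stock as the long asbestos fibers (LFA), and 3.1% of its fibers were still 5 µm or longer. NTS was a commercial batch of straight nanotubes. LFA was given at the SFA dose and long nanotubes (NTL) at the NTS dose, each to 4 mice. A snap-frozen piece of the diaphragm supplied the RNA, so each value is an average over muscle, pleural and peritoneal surfaces, blood, and any attached tissue. In such bulk RNA, fewer cells of a type and less RNA per cell cannot be told apart.

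The pleural side of the diaphragm is covered by mesothelium and is a main route by which particles are drained from the pleural space. Particles that are short enough can leave through openings in the parietal pleura or be engulfed whole by macrophages, whereas long fibers are retained and keep inflammation going. The question of the comparison is which genes and functions differ when both materials are short.

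The defining markers of skeletal muscle were abundant. All 28 genes of the muscle fiber list were measured, and Acta1, the skeletal actin, ran from 8.77 to 10.1 across the 8 arrays on a log2 scale relative to the 75th percentile of each array. All values below are on this scale, a difference is SFA minus NTS, and a positive difference means higher in SFA. The raw 75th percentile ran from 339 to 589 in SFA and from 380 to 487 in NTS, and 58.7% to 61.6% and 56.3% to 68.1% of the spots were well above background. Correlations between arrays were 0.924 to 0.975 within SFA, 0.865 to 0.984 within NTS, and 0.886 to 0.978 between the groups. SFA mouse 1 and SFA mouse 2 shared a slide with NTS mouse 1 and NTS mouse 2. SFA mice 3 and 4 were on a slide without NTS arrays, scanned on another day, and NTS mice 3 and 4 on a slide without SFA arrays, so values from the shared slide rest on 2 mice per group.

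Liver transcripts stood far apart between mice of the same group. The score of the hepatocyte list, which is the mean over its genes of the log2 difference from the control mean, was 0.78, 6.12, 3.74, and -2.66 in SFA mice 1 to 4 and -0.43, -1.81, 7.63, and 8.02 in NTS mice 1 to 4. Alb, the gene of serum albumin, ran from -1.94 to 8.66 in SFA and from -0.68 to 10.14 in NTS. The median difference over the list was -1.29 with all 28 genes lower in SFA, but 5.10 with all 28 genes higher in SFA on the shared slide, where the highest score was that of SFA mouse 2. Without the arrays of SFA mice 2 and 3 and NTS mice 3 and 4, the median was 0.30. Of the 12 lung epithelium genes, 6 were measured, with a median difference of -0.02. The defining markers Sftpc, Sftpb, and Sftpa1 were too dim to be tested.

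No difference between the short materials passed the test. Limma called 0 of 36920 probes at an adjusted p under 0.05 and a difference of at least 1 (0% of probes called), and the lowest adjusted p was 0.444. At an unadjusted p under 0.05, 2151 probes differed (5.83%), of which 1115 were higher in SFA (3.02%) and 1036 lower (2.81%). On the shared slide alone, 1116 were higher and 2949 lower. That count was 927 without SFA mouse 1, 3662 without SFA mouse 2, 1202 without SFA mouse 3, 1164 without NTS mouse 3, and 5438 without NTS mouse 4, and the number called stayed at 0 in each case. In the same fit, SFA differed from control at an unadjusted p under 0.05 in 843 probes (2.28%) and NTS in 1288 probes (3.49%), with 0 called in either. These comparisons share the control arrays.

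Counted by gene, with the brightest probe of each, 679 of 16861 genes were higher in SFA at an unadjusted p under 0.05 (4.03%) and 365 were lower (2.16%). All 4 SFA values lay above all 4 NTS values for 299 genes (1.78%) and below them for 157 genes (0.932%). The median difference over all genes was 0.01, and quantile normalization moved it to 0.10. Everything described below is therefore a description of measured levels, and every gene named failed the adjusted test.

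The circadian clock genes were the function list that stood lowest in SFA apart from lists that follow liver transcripts. The clock is a loop in which the proteins of Arntl (BMAL1) and Clock activate genes through the E-box CACGTG, and the proteins of the Per and Cry genes then block them. In a side loop, the receptors encoded by Nr1d1 and Nr1d2 repress Arntl, Clock, and Nfil3 while that of Rora activates them, and Dbp, Tef, and Hlf encode output factors that bind the D-box. All 19 listed genes were measured. Their median difference was -0.50, with 13 lower and 6 higher in SFA, and at an unadjusted p under 0.05 there were 6 lower and 1 higher. Over all genes, 2.16% were lower and 4.03% higher at that threshold.

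The windows before the starts of these genes were read to show which clock elements they hold. RefSeq (GRCm38.p6) gave windows of 250 bases before the start for 16 of the 19 genes, and 3 motifs were searched on both strands, CACGTG (E-box), TTATGTAA (D-box), and AGTAGGTCA (an element that REV-ERB receptors bind). CACGTG was found in 5 of these genes (Bhlhe41, Ciart, Cry1, Per1, and Tef) and in 6.02% of all 32851 windows. TTATGTAA was found in Per3 and in 0.819% of all windows, and AGTAGGTCA in Nfil3 and in 0.14%. The windows shown are those of Ciart and Dbp, in which every SFA mouse was below every NTS mouse, and of Per3, Cry1, and Nfil3, each with an element, in capitals where a motif or its reverse complement matched. Ciart (chr3:95882229-95882478, minus strand) has 3 matches, Per3 (chr4:151044666-151044915, minus strand) 2, and Cry1 (chr10:85185055-85185304, minus strand) and Nfil3 (chr13:52981040-52981289, minus strand) 1 each. The Dbp window (chr7:45704997-45705246, plus strand) has none, which says only that these letters are not in it.
Ciart: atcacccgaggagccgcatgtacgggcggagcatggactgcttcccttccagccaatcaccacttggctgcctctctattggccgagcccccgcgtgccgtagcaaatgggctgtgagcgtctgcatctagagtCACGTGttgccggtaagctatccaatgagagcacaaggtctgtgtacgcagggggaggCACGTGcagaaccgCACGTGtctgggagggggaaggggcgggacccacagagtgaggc
Dbp: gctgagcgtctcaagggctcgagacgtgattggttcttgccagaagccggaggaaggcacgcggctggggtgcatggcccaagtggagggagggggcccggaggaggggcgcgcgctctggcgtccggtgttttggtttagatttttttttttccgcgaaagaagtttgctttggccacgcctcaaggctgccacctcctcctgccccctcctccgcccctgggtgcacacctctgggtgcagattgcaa
Per3: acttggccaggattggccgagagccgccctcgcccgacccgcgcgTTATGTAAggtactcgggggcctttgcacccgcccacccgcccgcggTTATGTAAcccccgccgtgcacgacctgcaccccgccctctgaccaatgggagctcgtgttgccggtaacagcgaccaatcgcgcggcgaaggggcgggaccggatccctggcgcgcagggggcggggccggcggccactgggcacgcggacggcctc
Cry1: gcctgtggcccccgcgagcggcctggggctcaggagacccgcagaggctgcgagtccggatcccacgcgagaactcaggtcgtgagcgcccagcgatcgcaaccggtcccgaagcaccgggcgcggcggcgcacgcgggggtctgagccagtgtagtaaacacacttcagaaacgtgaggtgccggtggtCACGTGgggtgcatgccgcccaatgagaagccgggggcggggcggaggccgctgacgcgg
Nfil3: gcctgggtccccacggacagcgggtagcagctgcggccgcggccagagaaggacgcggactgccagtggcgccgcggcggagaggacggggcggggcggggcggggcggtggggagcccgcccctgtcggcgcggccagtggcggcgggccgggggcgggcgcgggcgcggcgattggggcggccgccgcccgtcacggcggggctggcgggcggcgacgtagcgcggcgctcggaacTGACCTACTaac

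Ciart, whose protein represses the BMAL1 and CLOCK pair, was not well above background in any SFA mouse. Its level was -6.79, -6.11, -5.86, and -7.36 in SFA and -3.86, -4.17, -5.06, and -4.33 in NTS, where it was well above background in 3 of 4 mice. The groups did not overlap, and the control mice, from -4.10 to -1.87, were above all SFA mice. Since the probe had only an upper limit in SFA, the fold was taken against the lowest signal well above background on each SFA array. By that measure Ciart was 1.61-fold higher in NTS. The NTS mean includes NTS mouse 3, which was not well above background, so this fold is not a strict lower bound. The difference of the fitted means, which includes those SFA values, was -2.18 (SE 0.60), with an adjusted p of 0.844 in limma. SE values are those of the fitted difference in limma.

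Dbp, an output factor with wide daily swings, was bright in every mouse. It stood at 3.74, 3.60, 4.18, and 3.18 in SFA and at 4.98, 4.98, 5.07, and 6.06 in NTS, without overlap, and control mice ran from 5.50 to 6.50. The difference was -1.60 (SE 0.39), the adjusted p in limma was 0.844, and a second probe gave -1.66. Against control, Dbp was 2.25 lower in SFA and 0.65 lower in NTS by the fitted means of 3.67, 5.27, and 5.92.

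Hlf, of the same family, was -0.53, 0.86, -0.60, and -0.45 in SFA and 1.10, 0.86, 1.21, and 0.98 in NTS. SFA mouse 2 alone reached the NTS range, and the difference was -1.22 (SE 0.33). Tef, the third of these factors, differed by -0.53 (SE 0.33) and the groups overlapped.

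Among the repressors, Per2 was -3.34, -3.55, -2.31, and -3.87 in SFA and -2.65, -2.36, -2.61, and -1.39 in NTS, a difference of -1.01 (SE 0.39). SFA mouse 3 overlapped with the NTS mice, and control mice, from -1.85 to -0.83, lay above all SFA mice. Per1 differed by -0.50 (SE 0.41) and Per3, well above background in 2 SFA and 3 NTS mice, by -1.35 (SE 1.03). Nr1d1, the gene of REV-ERBα, was 0.64 to 1.66 in SFA and 1.17 to 2.72 in NTS, with a difference of -0.91 (SE 0.43), whereas Nr1d2 differed by 0.18 (SE 0.47). Bhlhe41, a repressor of E-box genes, differed by -0.93 (SE 0.43).

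The activator Arntl went the other way. It was 2.29, 1.13, 1.53, and 1.83 in SFA and 0.61, 1.18, 0.54, and 0.57 in NTS, and SFA mouse 2 alone lay within the NTS range. The difference was 0.97 (SE 0.29), and the control mice, from 0.22 to 0.62, were all below the SFA mice. Clock differed by 0.85 (SE 0.54), Cry1 by 0.91 (SE 0.45), and Nfil3 by 0.40 (SE 0.31), all with overlap.

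**Figure D1:**
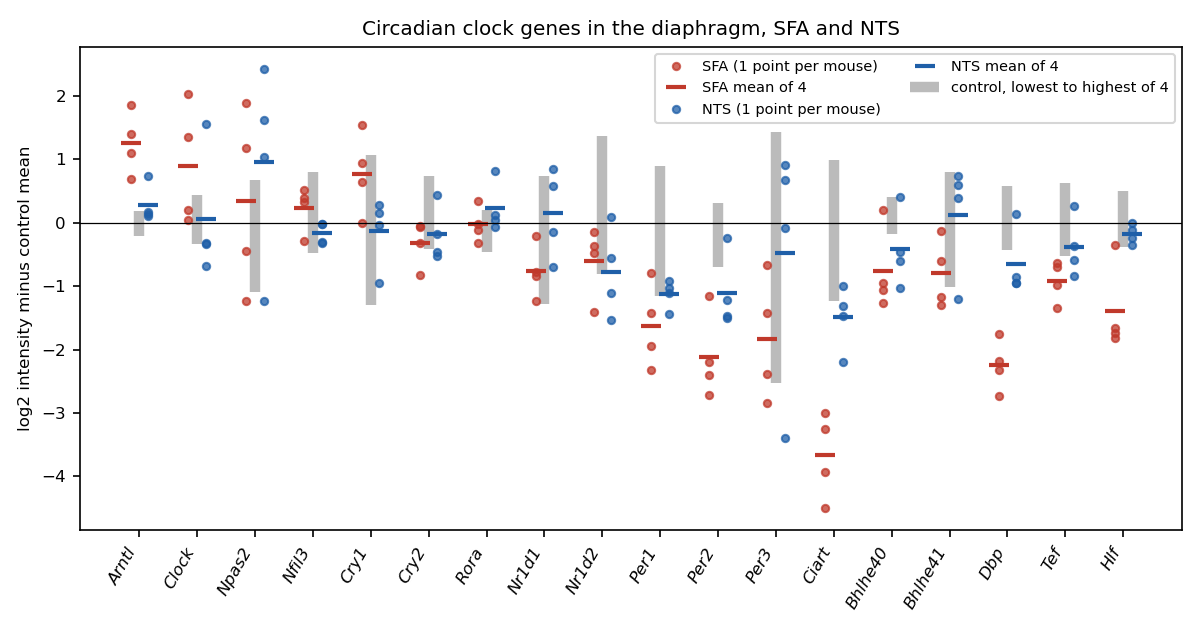
Log2 intensity of 18 clock genes minus the control mean of each gene, with 1 point per mouse, the mean of 4 as a dash, and the control range as a gray bar. The 4 SFA points of Dbp and of Ciart lie below all 4 NTS points, while those of Arntl lie mostly above them.

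By mouse, the clock score was -0.73, -0.64, -0.68, and -0.84 in SFA and -0.21, -0.17, -0.41, and -0.35 in NTS, and the control mice ran from -0.14 to 0.12. The SFA, NTS, and control ranges did not overlap, in the order SFA, NTS, control. The LFA mice ran from -0.98 to -0.60 and the NTL mice from -0.79 to -0.42, so the SFA range lay between the lowest LFA and the highest NTL mouse. The median difference of the list was -0.33 on the shared slide, -0.44 with the slide as a block, and -0.51 without SFA mice 2 and 3 and NTS mice 3 and 4. It was -0.29 without SFA mouse 1 and -0.31 without NTS mouse 4. The labels state a light and dark cycle of 12 h and give no hour of collection.

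**Figure D2:**
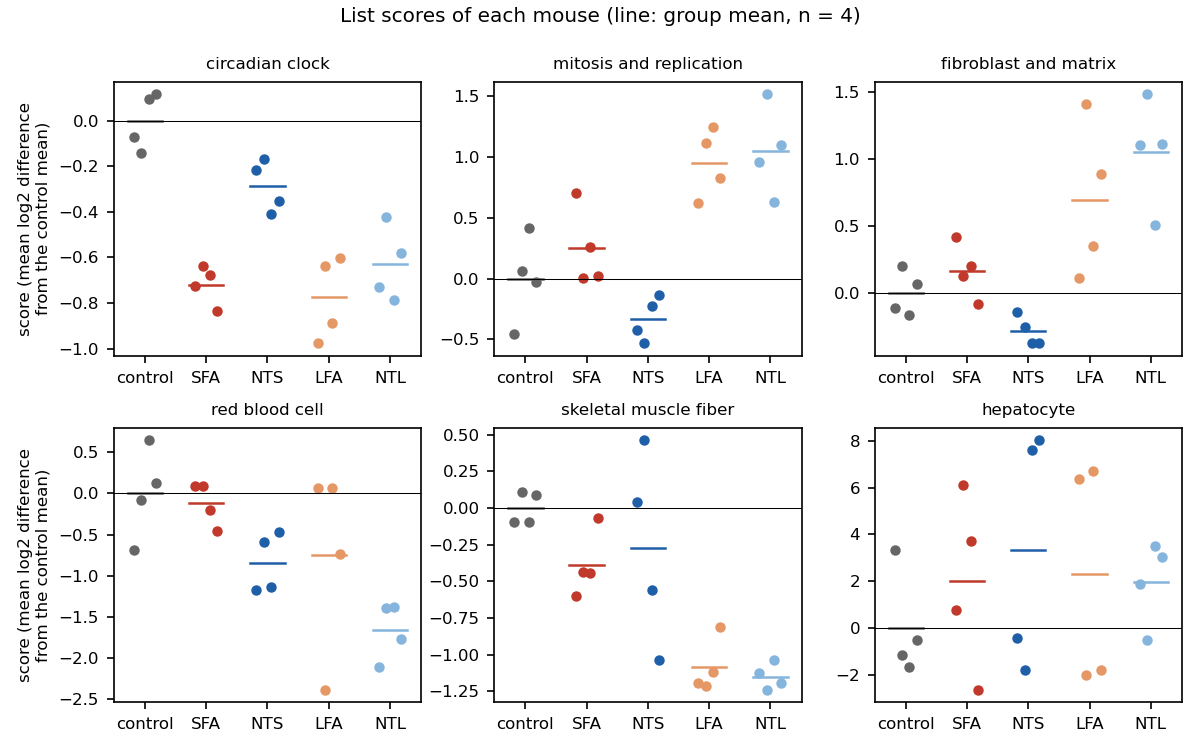
Score of 6 gene lists in each of the 20 mice, as the mean log2 difference from the control mean, with a line at the mean of each group of 4. The clock scores of SFA lie below those of NTS and the mitosis, fibroblast, and red blood cell scores above them, while the hepatocyte scores spread widely within both groups.

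Over the 35 lists, 4 had scores that did not overlap between SFA and NTS. Besides the clock, these were mitosis and DNA replication, fibroblast and matrix, and red blood cell, each with every SFA mouse above every NTS mouse. The lists are read against all genes, of which 51.4% had the higher mean in SFA. Of all genes, 4.03% were higher in SFA and 2.16% lower at an unadjusted p under 0.05. Every SFA value lay above every NTS value for 1.78% of genes and below for 0.932%. These are shares of single genes, and no such share was computed for list scores. A gap between the scores of a list can also be small, as for the red blood cell list.

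Genes of mitosis and DNA replication had a median difference of 0.49, with 26 of 28 measured genes higher in SFA. At an unadjusted p under 0.05, 8 were higher and 0 lower, and 4 of the 28 did not overlap. The scores were 0.71, 0.01, 0.26, and 0.02 in SFA and -0.42, -0.53, -0.22, and -0.13 in NTS, while the control mice spanned -0.45 to 0.42. Both short groups thus overlapped with the control range, whereas the LFA mice (0.62 to 1.25) and NTL mice (0.62 to 1.52) lay above the control range.

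Mki67, which encodes the proliferation marker Ki-67, was 1.27, -0.36, 0.60, and 0.24 in SFA and -1.23, -1.28, -0.88, and -0.88 in NTS. All SFA mice were above all NTS mice, with a difference of 1.50 (SE 0.57). Cdk1, the kinase that starts mitosis, was -2.65, -3.20, -3.14, and -3.20 in SFA and -4.12, -4.74, -3.64, and -4.04 in NTS, a difference of 1.09 (SE 0.33), again without overlap. Its partner Ccna2 (cyclin A2) differed by 1.01 (SE 0.34) and Plk1, a mitotic kinase, by 0.85 (SE 0.34), and neither overlapped. Ccnb1 (cyclin B1) differed by 1.38 (SE 0.43), Bub1, a spindle checkpoint kinase, by 1.49 (SE 0.48), and Top2a, which untangles replicated DNA, by 0.50 (SE 0.61), all with overlap. The lowest adjusted p of the list in limma was 0.844. Without SFA mice 2 and 3 and NTS mice 3 and 4 the median was 0.77, on the shared slide it was 0.70, and with normexp background correction it was 0.31.

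Fibroblast and matrix genes had a median difference of 0.44, with 21 of 24 higher in SFA, 6 of them at an unadjusted p under 0.05 and 0 lower. Their scores ran from -0.08 to 0.42 in SFA and from -0.38 to -0.14 in NTS, and the control mice, from -0.17 to 0.20, overlapped with both. Pdgfra, the receptor that marks fibroblasts, was 2.28, 1.57, 2.13, and 1.72 in SFA and 1.26, 1.06, 0.59, and 0.98 in NTS. These groups did not overlap, and the difference was 0.95 (SE 0.24). Col3a1, a collagen of reticular fibers, was 6.95, 6.13, 6.44, and 6.02 in SFA and 5.63, 5.75, 4.95, and 5.94 in NTS, again without overlap, at 0.82 (SE 0.32). Col1a1 and Col1a2, the chains of the main fibrillar collagen, differed by 0.61 (SE 0.38) and 0.36 (SE 0.31), with overlap. Postn, a matrix protein of remodeling tissue, differed by 1.22 (SE 0.56), Lox, which cross-links collagen, by 0.97 (SE 0.46), and Fbn1, the microfibril protein fibrillin, by 0.83 (SE 0.32). All had an adjusted p of at least 0.844 in limma, and the median was 0.46 on the shared slide and 0.27 without SFA mouse 1.

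Of the matrix metalloproteinases and their inhibitors, 14 of 18 were higher in SFA and the median was 0.28. That median was 0.12 without SFA mouse 1, 0.14 without NTS mouse 3, and 0.13 on the shared slide. Adamts4, which cleaves the proteoglycan aggrecan, was the clearest member, at 0.18, 0.17, -0.18, and 0.03 in SFA and -1.08, -1.76, -1.64, and -1.72 in NTS. All SFA mice lay above all NTS mice, with a difference of 1.60 (SE 0.32) and an adjusted p of 0.459 in limma. The gelatinase Mmp2 differed by 0.08 (SE 0.54), the stromelysin Mmp3 by 0.37 (SE 0.54), and the macrophage elastase Mmp12 by 1.76 (SE 1.18). Mmp12 was well above background in 2 SFA mice and in no NTS mouse, and SFA mouse 2 stood far above the others, at -1.79 against -5.59, -5.21, and -4.74 in the other SFA mice.

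Mesothelial genes had a median difference of 0.47, with 13 of 15 higher in SFA, 3 of them at an unadjusted p under 0.05. Msln, the defining surface protein mesothelin, was 5.51, 4.69, 5.10, and 4.94 in SFA and 5.29, 4.47, 4.06, and 4.63 in NTS. The groups overlapped, the difference was 0.45 (SE 0.34), and both overlapped with the control mice (4.80 to 5.96). Wt1, a transcription factor of mesothelium, differed by 0.77 (SE 0.40), Lrrn4 by 1.01 (SE 0.34), and the zinc-finger gene Bnc1 by 1.04 (SE 0.48). The mesothelial scores, from -0.44 to 0.27 in SFA and from -0.93 to -0.06 in NTS, overlapped, and the median was 0.30 without SFA mouse 1.

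The red blood cell list had 9 of 11 genes higher in SFA and a median of 0.47. Its scores ran from -0.45 to 0.09 in SFA and from -1.18 to -0.47 in NTS, so the ranges nearly met. The control mice, from -0.68 to 0.64, overlapped with both. The abundant globin genes had small differences, with Hbb-b1 at 0.33 (SE 0.40) and Hba-a1 at 0.31 (SE 0.41). With the 5′ to 3′ index of the arrays, a measure of RNA integrity from probes along the same transcript, as a covariate, the median of this list was 0.06. It was 0.26 without NTS mouse 3 and 0.88 on the shared slide. That index ran from -2.19 to -1.18 in SFA and from -1.99 to -0.91 in NTS, and its part in these values was not tested.

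B and plasma cell genes had the highest median of the 35 lists, 0.89, with 14 of 18 higher in SFA and 7 of them at an unadjusted p under 0.05. Cxcl13, the chemokine that draws B cells into follicles, was 4.15, 2.52, 2.85, and 3.0 in SFA and 2.58, -0.29, 1.58, and 1.16 in NTS. NTS mouse 1 alone reached the lower end of the SFA mice, and the difference was 1.87 (SE 0.50). Ms4a1, the gene of CD20, was 3.89, 2.04, 2.99, and 2.81 in SFA and 2.35, 0.17, 1.90, and 1.64 in NTS, a difference of 1.42 (SE 0.56) with SFA mouse 2 in the NTS range. Jchain, which joins secreted antibody chains, differed by 1.02 (SE 0.44) and Cd79a, of the B cell receptor, by 0.73 (SE 0.51). Sdc1, a plasma cell marker also made by hepatocytes, was the largest exception at -1.20 (SE 0.59). Its 2 high values, 2.28 and 2.07, were in NTS mice 3 and 4, the mice with the highest hepatocyte scores. A link between the Sdc1 values and these scores was not tested. The list scores, -0.16 to 0.72 in SFA and -1.25 to 0.23 in NTS, overlapped with each other and with the control mice (-0.43 to 0.58). Against control, the median was 0.28 in SFA and -0.59 in NTS. The median of SFA minus NTS was 0.83 on the shared slide and 1.18 without SFA mice 2 and 3 and NTS mice 3 and 4. It was 0.58 either without NTS mouse 2 or with the slide as a block.

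The macrophage list differed less, with 16 of 23 genes higher in SFA and a median of 0.34, which was 0.21 without SFA mouse 1, 0.22 without NTS mouse 2, and 0.55 on the shared slide. Csf1r, the receptor for the macrophage growth factor, differed by -0.02 (SE 0.23), Cd68, a lysosomal marker, by 0.34 (SE 0.34), and Adgre1, a macrophage surface receptor, by 0.45 (SE 0.38). Marco, a scavenger receptor for particles, was 2.67, 1.42, 2.38, and 2.90 in SFA and 1.75, 0.50, 0.86, and 1.98 in NTS, a difference of 1.07 (SE 0.46) with overlap. The scores were -0.16 to 0.36 in SFA and -0.26 to 0.17 in NTS, while LFA ran from 1.28 to 2.47 and NTL from 2.25 to 2.72, so both short groups were below every long-fiber mouse. T and NK cell genes had a median of 0.27 with 0 of 19 at an unadjusted p under 0.05, and granulocyte and mast cell genes had a median of 0.16 with 0 of 20. Across the alternatives the former ran from 0.03 to 0.69 and the latter from -0.22, without SFA mouse 1, to 0.64.

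Of the chemokines and receptors of monocytes and neutrophils, 21 of 25 were higher in SFA, with a median of 0.27 that was 0.43 on the shared slide, 0.49 without SFA mouse 2, and 0.41 without NTS mouse 3. Ccr2, the receptor that brings monocytes out of the marrow, was 1.66, 0.28, 1.17, and 0.72 in SFA and -0.15, -0.59, 0.17, and 0.07 in NTS. All SFA mice were above all NTS mice, and the difference was 1.08 (SE 0.40). Its ligands Ccl2 and Ccl7 did not differ to that degree, at 0.19 (SE 0.40) and 0.24 (SE 0.53). The chemokine Ccl8 differed by 0.56 (SE 0.51). Cxcl5, a neutrophil chemokine, differed by 1.85 (SE 0.73) and was well above background in 4 SFA mice and 1 NTS mouse. The cytokines Il6, Il1b, and Tnf differed by 0.99 (SE 0.50), 0.18 (SE 0.72), and -0.09 (SE 0.44).

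Interferon-stimulated genes had a median of 0.36, with 22 of 26 higher in SFA and 3 at an unadjusted p under 0.05. The median was 0.17 without NTS mouse 2, 0.21 without SFA mouse 3, 0.24 without NTS mouse 1, and 0.16 with the 5′ to 3′ index as a covariate, but 0.60 on the shared slide. Ifi44 was 0.37, 0.19, 0.90, and 0.21 in SFA and -0.79, -1.04, -0.51, and -0.25 in NTS, without overlap, at 1.06 (SE 0.34). Rsad2 (viperin, an antiviral enzyme) differed by 1.06 (SE 0.35) and Oas2, a sensor of double-stranded RNA, by 0.93 (SE 0.38), both with overlap, while Isg15 differed by 0.39 (SE 0.47). The immediate early genes, induced within minutes of a stimulus, had a median of 0.41 with 17 of 22 higher in SFA. On the shared slide 13 of 22 were higher and the median was 0.22, and it was 0.21 with the slide as a block and 0.18 without NTS mice 3 and 4. Against control, the median of these genes was below 0 in both groups, at -0.14 in SFA and -0.43 in NTS. Fos differed by 0.99 (SE 0.45), Egr1 by 0.59 (SE 0.54), and Jun by 0.43 (SE 0.30), whereas Junb and Ier2 differed by -1.49 (SE 1.07) and -1.26 (SE 1.53) with a wide spread in both groups.

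**Figure D3:**
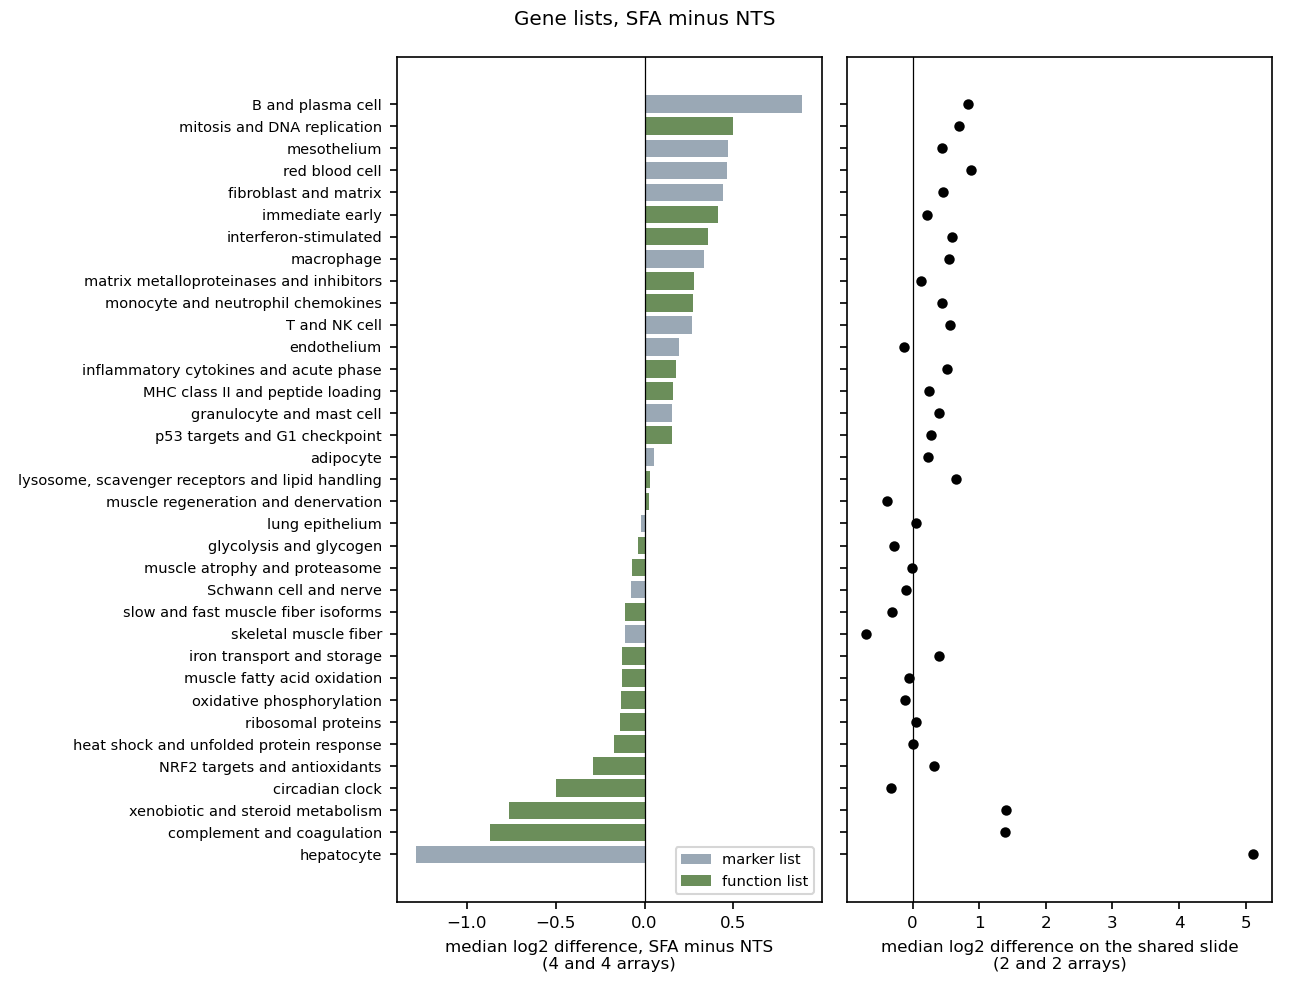
Median log2 difference (SFA minus NTS) over the measured genes of each of 35 lists for all 4 and 4 arrays (bars) and for the 2 and 2 arrays of the shared slide (points). The clock, mitosis, fibroblast, and B cell medians have the same sign in both panels, whereas the hepatocyte, complement, and xenobiotic medians turn from below 0 to above 0.

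Lists that contain liver genes followed the hepatocyte scores. The median of complement and coagulation was -0.87 with 22 of 29 lower in SFA, but 1.39 on the shared slide. That of xenobiotic and steroid metabolism was -0.76 with 23 of 27 lower, but 1.40 there. Within the complement list, C3 and C2, which many tissues make, differed by 0.01 (SE 0.31) and 0.08 (SE 0.32), and the difference of C9, made in the liver, was -2.31 (SE 1.62). Hamp, the liver hormone of iron balance, ran from -5.54 to 5.33 in SFA and from -4.16 to 7.67 in NTS, while the ferritin chain Fth1 differed by -0.11 (SE 0.28).

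The targets of NRF2, the factor that turns on antioxidant genes, were 23 of 28 lower in SFA, with a median of -0.29 and 3 at an unadjusted p under 0.05. Txnrd1, thioredoxin reductase, was 2.88, 2.41, 2.79, and 2.98 in SFA and 3.20, 3.13, 3.52, and 3.56 in NTS, without overlap, and the difference was -0.59 (SE 0.25). Gclm and Gclc, the subunits of the enzyme that limits glutathione synthesis, differed by -1.21 (SE 0.48) and -1.03 (SE 0.72). For Gclm, NTS mice 3 and 4 stood at 0.71 and 1.03 and the other 6 mice between -2.00 and -0.99. Gclc was likewise highest in those 2 mice, which had the highest hepatocyte scores. A link between these genes and the hepatocyte scores was not tested. On the shared slide the median of the list was 0.32 and without NTS mice 3 and 4 it was 0.14. The inducible markers Nqo1 and Hmox1 differed by 0.12 (SE 0.25) and -0.16 (SE 0.26).

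The median of the muscle fiber list was -0.11 with 17 of 28 lower in SFA and 0 at an unadjusted p under 0.05, and Acta1, Ckm (muscle creatine kinase), and Mb (myoglobin) differed by -0.33 (SE 0.25), -0.68 (SE 0.48), and -0.19 (SE 0.24). On the shared slide only 4 of the 28 were higher in SFA and the median was -0.70, and it was -0.63 without NTS mice 3 and 4 and -0.35 without NTS mouse 4. It turned to 0.13 without NTS mouse 2 and to 0.11 with quantile normalization. Oxidative phosphorylation genes were 29 of 33 lower in SFA, by a median of only -0.13, which became 0.04 with the slide as a block, 0.10 with quantile normalization, and -0.35 with the 5′ to 3′ index as a covariate. Their scores ran from -0.43 to -0.20 in SFA and from -0.51 to 0.01 in NTS.

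The single genes with the largest differences were named by a rule that required an unadjusted p under 0.05, a difference of at least 1, no overlap, and a signal well above background in all 4 mice of the higher group. It was met by 69 genes higher in SFA and 22 higher in NTS, and of the 12 with the largest difference in each direction, 10 higher in SFA and all 12 higher in NTS are described. The rule selects on the difference itself, so these values are a description, and the adjusted p of each was at least 0.459 in limma. Where a probe was not well above background in any mouse of the lower group, a lower bound of the fold is given. It was taken against the lowest signal well above background on each array of that group.

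Among the genes higher in SFA, Clec4e, a lectin receptor of macrophages also known as Mincle, was -2.75, -2.79, -2.84, and -2.57 in SFA and -4.23, -4.90, -4.15, and -4.55 in NTS. The SFA mice were nearly equal, the difference was 1.72 (SE 0.45), and the LFA and NTL means were 0.39 and 0.12. Serpinb2, an inhibitor of plasminogen activators, was -2.01, -2.16, -2.69, and -2.24 in SFA and -3.98, -4.40, -3.55, and -4.14 in NTS, a difference of 1.74 (SE 0.44). Its means were -0.52 in LFA and -0.47 in NTL. The probe of Serpinb10 (Serpinb10-ps in the files) at chr1:109443390-109443449 lies close to that of Serpinb2 at chr1:109422046-109422105 (NCBI37, the build of the files), and its level was -2.02, -1.75, -2.10, and -1.71 in SFA and -4.22, -3.51, -3.56, and -3.95 in NTS, at 1.92 (SE 0.43) and an adjusted p of 0.799 in limma. Against control, SFA was 1.27 higher for Serpinb2 and 1.03 higher for Serpinb10, and NTS differed from control by -0.47 and -0.88.

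The other SFA-higher genes have varied roles. Fkbp11, a folding enzyme of the endoplasmic reticulum in secretory cells, differed by 2.0 (SE 0.56), at least 2.39-fold, and Zfp558, a zinc-finger gene, by 2.11 (SE 0.58), at least 2.66-fold, with neither well above background in any NTS mouse. Tmprss13, a membrane serine protease, differed by 2.18 (SE 0.73), with SFA mouse 2 at 1.23 and the other SFA mice between -3.15 and -2.13. Isl1, a homeobox factor of motor neurons, differed by 2.0 (SE 0.80) and Folh1, a membrane carboxypeptidase, by 1.77 (SE 0.54). Against control, Folh1 differed by 0.04 in SFA and by -1.73 in NTS, so SFA stood near control and NTS below it. Gfod1 and Alkal2, which encodes a ligand of the receptor kinase ALK, differed by 1.85 (SE 0.56) and 1.61 (SE 0.53). The Gfod1 difference was 0.97 on the shared slide and 0.92 without NTS mice 3 and 4, and 2 NTS mice were well above background.

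**Figure D4:**
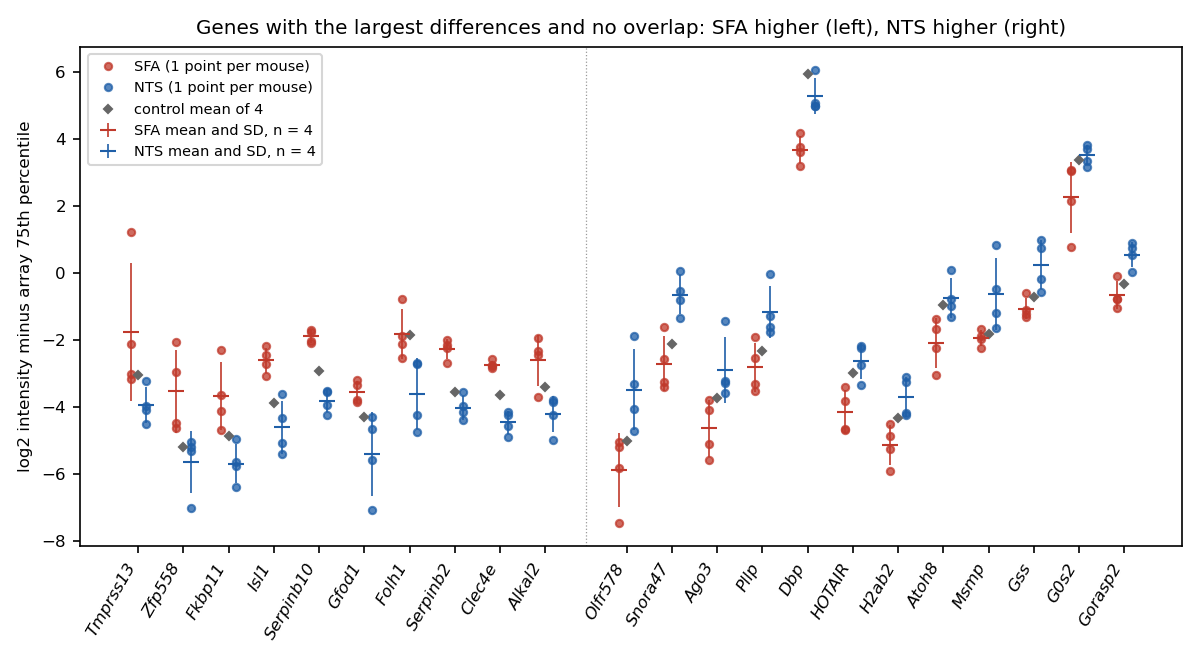
Log2 intensity relative to the 75th percentile of each array for the 10 SFA-higher and the 12 NTS-higher genes described, with 1 point per mouse, the mean with SD, and the control mean as a diamond. The 4 SFA and the 4 NTS points of each gene do not overlap, which the choice of genes required. Levels of different genes come from different probes and cannot be compared.

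On the NTS side, Snora47, a small nucleolar RNA that guides pseudouridylation (probe at chr13:96100607-96100666, plus strand), was -3.39, -1.61, -3.26, and -2.56 in SFA and -0.81, -1.33, 0.05, and -0.53 in NTS. The control mice lay within the SFA range, at -2.27 to -1.91, and the difference was -2.05 (SE 0.39) with an adjusted p of 0.459 in limma. Pllp, which encodes the membrane protein plasmolipin, differed by -1.64 (SE 0.41), and Gss, glutathione synthetase, by -1.31 (SE 0.32). Gss stood at -1.23, -1.31, -1.12, and -0.60 in SFA and -0.56, -0.17, 0.97, and 0.74 in NTS, so that NTS mice 3 and 4 were highest, as for Gclm. G0s2, an inhibitor of fat breakdown, was 2.15, 0.78, 3.03, and 3.05 in SFA and 3.16, 3.35, 3.80, and 3.70 in NTS, with control at 2.91 to 3.90, and the difference was -1.25 (SE 0.45).

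The other NTS-higher genes were Atoh8, a helix-loop-helix factor, at -1.34 (SE 0.44), the noncoding RNA of the Hoxc cluster that the files name HOTAIR at -1.51 (SE 0.46), and Gorasp2, a Golgi stacking protein, at -1.21 (SE 0.31). Msmp, which encodes a microseminoprotein, differed by -1.32 (SE 0.48) and Ago3 (Eif2c3 in the files), an argonaute that binds small RNAs, by -1.75 (SE 0.62). The Msmp difference was only -0.40 on the shared slide and -0.52 without NTS mice 3 and 4. Dim in SFA, with 1 of 4 mice well above background each, were Olfr578, an olfactory receptor gene, at -2.40 (SE 0.63), and H2ab2 (H2afb2-ps in the files), a variant histone, at -1.43 (SE 0.46). The H2ab2 difference was -0.67 on the shared slide and -0.92 without NTS mice 3 and 4. Dbp, described with the clock, also met the rule.

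Whether the difference between the materials depended on length was tested as SFA minus NTS against LFA minus NTL. Limma called 0 of 36920 probes (0%), and 1273 differed at an unadjusted p under 0.05 (3.45%). Among genes named by the same rule for this contrast, Fkbp11 differed by 2.0 between the short materials and by -0.82 between the long, Snora47 by -2.05 and 0.50, Pllp by -1.64 and 0.39, and Scai by 1.18 and -1.03, each with an adjusted p of 1.0 in limma. These genes were chosen by the size of this contrast, which favors opposite signs, so their signs do not show a dependence on length. Across the 16861 genes, which are not independent, the short and the long differences correlated at -0.14, and 50.7% had the same sign. No arrays are shared between them. The clock list had a median of -0.16 between LFA and NTL and the mitosis list one of -0.09. Fibroblast and B cell medians were -0.36 and -0.16 there, opposite in sign to those between the short materials. Mesothelial and red blood cell medians were 0.66 and 1.06, of the same sign as between the short materials and larger.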

How the data were processed

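Total RNA from the diaphragm of 20 mice was labeled by the authors with Cy3 and hybridized to 1-color Agilent mouse arrays, read with Agilent Feature Extraction 10.7.3.1 per the file headers and submitters' processing notes. The deposited scanner files hold, for each spot, an intensity from which the software had subtracted the background. A deposited set of log2 values that the authors normalized holds group means only, as the authors' means, and served as an alternative without a test.

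Between 92 and 204 spots of an array carried an outlier mark and were dropped, while no spot was saturated. From the log2 intensity of a spot, the 75th percentile over the 59305 noncontrol spots of its array was subtracted, and averaging of spots gave 55681 probes. A probe was tested when well above background on at least 4 of 20 arrays, which held for 36920 probes, 25010 of them on all arrays. The lists comprise 814 entries for 776 genes, of which 750 were tested. Names came from the files and, for 27235 accessions, from a gene table of GRCm38.p6 that gave no positions.

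Limma 3.58.1 in R 4.3.3 with data.table (version 1.17.8) was fitted with a mean for each of the 5 groups, and p-values were adjusted by the Benjamini-Hochberg method over all tested probes. A call needed an adjusted p under 0.05 and a log2 difference of at least 1. A gene was represented by its brightest probe. The genes named are those of the rule given in the results, the first 3 measured and the 3 most different members of a list, and up to 5 in each direction of the length contrast, and not all of these are reported here. The members, gene lists, and rules were chosen with earlier results of these data known. The steps were tested on simulated data. Python 3.11.15 with pandas 2.3.3, numpy 2.4.6, and matplotlib 3.10.9 read the files and drew the figures. The number of arrays per group, 4, limits the precision.

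Alternatives were quantile normalization, normexp background correction (offset 50), the filter on dim probes dropped or extended to every array, outlier spots kept, averaging by gene, slide, scan day, or replicate number as a block, the shared slide only, the 8 arrays only, covariates for the hepatocyte score and for the 5′ to 3′ index (1920 transcripts with probes at least 1000 bases apart), the methods' unequal-variance test, the authors' table, and leaving out arrays. Scan day as a block and the removal of SFA mice 2 and 3 with NTS mice 3 and 4 were chosen after seeing the data.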

Additional observations from a re-analysis of the deposited data

Results flagged for a closer look

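Of 120 groups of 4 values checked for a lone value far from the others, 4 were marked (3.33%), and chance alone marks about 1 in 20. Dbp was highest in NTS mouse 4, at 6.06 against 4.98 to 5.07 in the other NTS mice, and the groups remain apart without it. Ago3 was highest in the same mouse, at -1.44 against -3.59 to -3.23. Zfp558 was lowest in NTS mouse 3, at -6.99 against -5.32 to -5.04, where no NTS mouse was well above background. The ribosomal protein score was 0.23 in NTS mouse 3 and -0.19 in the other NTS mice. No cause was tested for any of these values.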

How the results depend on the processing

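The number of probes called by limma was 0 under every alternative that gave a count except quantile normalization, which called 1 that is not reported here. Without the minimum fold it was also 0, and the methods' unequal-variance test called 0 after adjustment, with a lowest adjusted p of 0.958. The number of probes at an unadjusted p under 0.05, 2151, was 4065 on the shared slide alone, 4910 without NTS mice 3 and 4, 4152 without SFA mice 2 and 3 and NTS mice 3 and 4, and 4095 with the 5′ to 3′ index as a covariate. It was 1178 with the 8 arrays alone, 1129 when probes were averaged by gene, which tests fewer features, and 1199 by the methods' test. Leaving out each array in turn gave 927 (without SFA mouse 1) to 5438 (without NTS mouse 4). Apart from the averaging by gene and the arrays left out, the cause of these shifts was not tested. Normexp correction turned the split of these probes from 1115 higher and 1036 lower to 738 and 991, the shared slide to 1116 and 2949, removal of NTS mice 3 and 4 to 1398 and 3512, removal of NTS mouse 4 to 1853 and 3585, and removal of NTS mouse 3 to 744 and 420. Removal of SFA mice 2 and 3 and NTS mice 3 and 4 gave 1229 and 2923, no filter on dim probes 1149 and 1759, and quantile normalization 1742 and 877. Each array came from a separate mouse, so by design equal replicate numbers did not mark the same animal. Deviations of same-numbered mice correlated at -0.68 to 0.03. The replicate block left 0 called and 1985 at an unadjusted p under 0.05. Of 840 list medians recomputed, 53 moved by more than the spread between mice, 13 of them on the shared slide. The clock median ran from -0.60 to -0.29 and kept its sign under all 24 settings. The same held for the mitosis, fibroblast, mesothelium, and B cell lists, and also for lists with smaller medians, such as T and NK cell. By contrast, the hepatocyte median ran from -2.98 to 5.10. Probes near background, such as those of Ciart and Zfp558, have only an upper limit in the lower group.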
